A study of Mus musculus with 92 samples.

Results

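The interferon response genes described here are 37 genes of the antiviral and immune programme that cells switch on when interferon reaches them, chosen as a list of gene names. Of these, 36 had usable read counts in female mouse liver and all 36 passed the expression filter, so that they are 36 of the 12617 genes tested and of the 17275 genes with female counts. The other member, Ifit3 (chromosome 19, 34583531 to 34588731), is described only from the authors' deposited tables. Ddx58, an RNA sensor, is listed as Rigi in those tables and was matched by its gene identifier.

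Livers of HET3 mice, a cross in which every animal is genetically distinct, were sequenced after a fast of 16 hours that all groups shared. The female groups were Low Isoleucine (8 libraries), Low Amino Acid (7) and Control (8) at 24 months, and Low Isoleucine (7), Low Amino Acid (8) and Control (8) at 6 months. Low Isoleucine lowers that essential amino acid alone, and Low Amino Acid restricts total amino acids. Per the labels the diets began at 6 months in the mice killed at 24 months and at 9 weeks in those killed at 6 months, whereas the series text gives 13 weeks on diet for both, so age is the labelled age and cannot be told apart from the age at diet start or from time on diet. Replicate 3 of the 6-month Low Isoleucine group, titled Y_FEM_HH_14N, was left out by the rule that defined these gene values, with the results that keep it given among the alternatives, and replicate numbers follow accession order and only name libraries. Nothing in the labels states that each library is a separate animal, so p-values measure the spread between libraries, which may be technical in part. Titles end in a number and a letter, and some libraries of a group share the number. Its meaning is not stated, so such libraries may not be independent, and the tests take no account of it. Library totals, in M (1e+06 counts), ran from 7.82 M to 27.6 M with a median of 22.4 M, and the lowest was Low Isoleucine replicate 5 at 24 months. The 6 measured hepatocyte markers of 8 listed summed to between 58200 and 179000 CPM (counts scaled to a library of 1e+06 counts), so genes that define liver were abundant in every library.

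Type I interferon binds a receptor of IFNAR1 and IFNAR2 and leads a complex that holds STAT2 and IRF9 to bind a DNA element called the ISRE, which drives antiviral effectors such as the OAS, IFIT and MX proteins and ISG15. Interferon gamma signals through another receptor to the GAS element, and is the stronger inducer of guanylate-binding proteins and of the immunoproteasome and peptide transporter that feed antigen presentation. In liver, hepatocytes, Kupffer cells (the resident macrophages), endothelial cells and lymphocytes all respond, so RNA of whole liver adds their responses together.

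The promoters of 5 members are shown to let these elements be seen beside the values that follow: Isg15 and Ifit1 as antiviral targets, Oas1a because it was the member that fell furthest among the calls on Low Isoleucine, and Gbp2 and Psmb8 as members that rose with age. Each is the 150 bases before the RefSeq start on GRCm38.p6, written 5′ to 3′ on the strand of the gene, with capitals marking GAAANNGAAA (the core of the ISRE, or TTTCNNTTTC when it lies on the other strand) and TTCNNNGAA (the GAS core, the same on both strands).
Isg15, chr4:156200819-156200968, minus strand: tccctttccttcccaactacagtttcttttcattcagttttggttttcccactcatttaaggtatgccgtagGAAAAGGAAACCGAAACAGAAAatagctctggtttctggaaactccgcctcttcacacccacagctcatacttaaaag
Ifit1, chr19:34640739-34640888, plus strand: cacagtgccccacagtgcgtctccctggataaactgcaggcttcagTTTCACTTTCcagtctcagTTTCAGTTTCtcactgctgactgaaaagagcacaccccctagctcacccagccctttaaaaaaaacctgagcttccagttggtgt
Oas1a, chr5:120907526-120907675, minus strand: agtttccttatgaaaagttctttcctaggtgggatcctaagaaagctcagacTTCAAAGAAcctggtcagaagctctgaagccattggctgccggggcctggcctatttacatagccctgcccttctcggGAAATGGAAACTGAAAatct
Gbp2, chr3:142620513-142620662, plus strand: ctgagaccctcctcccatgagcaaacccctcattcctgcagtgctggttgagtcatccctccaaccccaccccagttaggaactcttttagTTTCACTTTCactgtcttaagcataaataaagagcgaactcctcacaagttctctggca
Psmb8, chr17:34198045-34198194, plus strand: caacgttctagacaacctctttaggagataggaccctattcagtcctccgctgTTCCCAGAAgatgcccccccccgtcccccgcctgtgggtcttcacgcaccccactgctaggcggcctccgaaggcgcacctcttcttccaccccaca
In Isg15 the capitals hold 3 overlapping ISRE cores, in Ifit1 2 separate ones, in Oas1a 2 overlapping ones and a GAS core, in Gbp2 1 ISRE core, and in Psmb8 1 GAS core and no ISRE core. The Psmb8 window lies inside the extent that GENCODE M21 gives this gene, and the end of the Gbp2 window overlaps that of Gbp2. Within 250 bases before the start, GAAANNGAAA on either strand was found in 12 of the 32 RefSeq promoters that matched members (28 of the 37 genes matched), or 37.5%, against 2.98% of all 32851 promoters. TTCNNNGAA was found in 6 of the 32, or 18.8%, against 7.02% of all promoters. Bst2, Gbp7 and Oas1a held both motifs, which share a GAA triplet and can overlap. A match describes these letters only and is not a measured binding site.

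Set against gene length, the members differed widely in level. In 6-month Control livers the highest median was that of Bst2, which encodes tetherin, a protein that holds budding virus at the cell surface, at 34.6 CPM per kb of exon. Trim25 and Dtx3l, both ubiquitin ligases, followed at 20.3 and 20.0 CPM per kb, and the transcription factors Stat2, Irf1, Irf9 and Irf7 lay between 8.91 and 11.2 CPM per kb. The OAS family, enzymes that sense double-stranded RNA and activate RNase L, lay low, between 0.457 CPM per kb for Oas3 and 3.06 CPM per kb for Oas1a. Neighbours in this order often differed by less than the spread between libraries, since the members' median SD of log2 CPM in that group was 0.406.

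Before any comparison between groups, libraries of the same group differed in level. By Dixon's test, given near the end, no library was flagged on the mean over members, and those named below were picked from the values. Across the 36 members, the mean log2 CPM of each library relative to the 6-month Control mean ran between -0.71 and 0.43 in the 3 groups at 6 months, and between -0.22 and 0.28 in the 24-month Low Amino Acid group. Among 24-month Low Isoleucine livers, replicates 2 and 7 stood at 0.95 and 0.90, and the other 6 libraries between -0.75 and -0.01. Among 24-month Controls, 7 libraries lay between 0.04 and 1.06, with replicate 7 highest, and replicate 5 stood at -0.69. That library was the lowest of its group in 28 of 36 members, and replicate 7 was the highest in 18. The members' median SD of log2 CPM was 0.765 on Low Isoleucine, 0.387 on Low Amino Acid and 0.732 in Controls at 24 months, and 0.396, 0.287 and 0.406 in the same order of diets at 6 months, so the Low Isoleucine and Control groups at 24 months were the uneven ones. Over all 12617 genes these medians were 0.289, 0.272 and 0.365 at 24 months and 0.265, 0.215 and 0.27 at 6 months, in that order of diets, so the median member varied more than the median gene in every group.

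**Figure D1:**
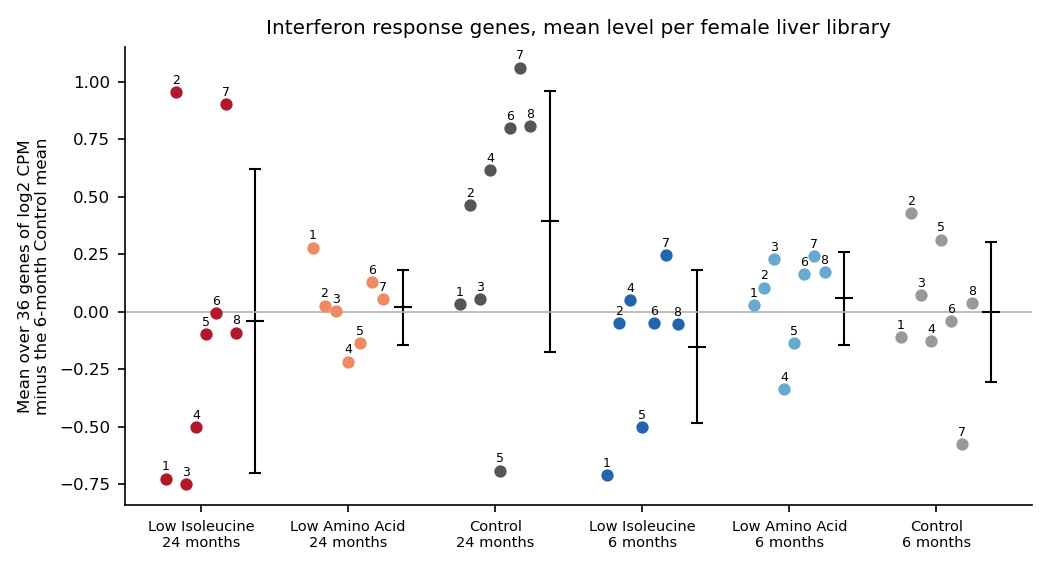
Mean log2 CPM over the 36 members relative to the 6-month Control mean, 1 point per female library with its replicate number, and the group mean ± SD beside it. Low Isoleucine replicates 2 and 7 at 24 months stand at 0.95 and 0.90, and replicate 5 of the 24-month Controls at -0.69.

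The high libraries were above the 6-month Control mean in nearly every member (Low Isoleucine replicates 2 and 7 in 34 and 36 of 36, and Control replicates 6 and 7 in 33 and 36), but by amounts that differed with role. In Low Isoleucine replicate 2 at 24 months the antigen processing genes Psmb8 and Tap1 averaged 1.87 and the guanylate-binding and immunity-related GTPases 1.82 above the 6-month Control mean on the log2 scale, while the ISG15 system (Isg15, Usp18 and Trim25) averaged 0.38. In replicate 7 of that group antigen processing averaged 0.42, GTPases 0.87, the ISG15 system 0.92 and the IFIT, MX and other effectors 1.13. Among 24-month Controls, replicate 7 had antigen processing at 2.13, GTPases at 2.37 and the ISG15 system at 0.40, and replicate 6 had antigen processing at 0.58, GTPases at 1.17 and the ISG15 system at 0.92. These contrasts were picked from the values and carry no test.

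Some of the libraries high in members, but not all, stood out in RNA of other cell types. The summed CPM of the 5 B-cell markers was 130.0 in replicate 2 of 24-month Low Isoleucine (6.79 to 41.9 in the other 7) and 217 in replicate 7 of 24-month Control (6.24 to 40.9 in the other 7), against 0.951 to 9.96 across the groups at 6 months. The 12 measured T and NK cell markers summed to 72.7 and 57.4 CPM in those libraries, also the highest of their groups, and the 11 Kupffer and macrophage markers reached 2990 CPM in replicate 7 of 24-month Control and 1210 CPM in replicate 2 of 24-month Low Isoleucine. Kupffer sums were also high where the members' mean was near 0, at 1650 CPM in Low Isoleucine replicate 5, 1890 CPM in Low Amino Acid replicate 2 and 1850 CPM in Control replicate 1, all at 24 months. Antigen processing genes averaged 0.78, 0.72 and 0.43 in these libraries in that order, and GTPases 0.44, 0.45 and 0.30, on the log2 scale above the 6-month Control mean. Control replicate 4 at 24 months had a Kupffer sum of 1900 CPM and a members' mean of 0.62. Control replicates 6 and 8 at 24 months, with members' means of 0.80 and 0.81, had B-cell sums of only 10.2 and 6.24 CPM. Their T and NK sums were 10.3 and 8.58 CPM, and their Kupffer sums 549 and 888 CPM. Low Isoleucine replicate 7 at 24 months, with a members' mean of 0.90, had sums of 41.9, 28.4 and 594 CPM in that order of lists. Replicate 5 of 24-month Control, the low library, had the highest sum of neutrophil markers in its group, 3750 CPM, the highest acute phase sum, 187000 CPM, and the lowest Kupffer sum, 338 CPM. Control replicate 1 had nearly the same neutrophil sum, 3690 CPM, and an acute phase sum of 101000 CPM, with a members' mean of 0.04. The 6 measured markers of plasmacytoid dendritic cells, which make type I interferon, summed to 12.6 to 30.5, 13.7 to 50.3 and 14.7 to 46.7 CPM on Low Isoleucine, Low Amino Acid and Control at 24 months, and to 11.5 to 16.5, 10.4 to 19.6 and 9.79 to 18.6 CPM at 6 months. No marker of the B, T and NK, Kupffer or endothelial lists was at 0 in every library of a group, and of the neutrophil list only Stfa2l1 was, on Low Isoleucine at 6 months. Their part in the results below was not tested, beyond fits without the first 2 of these libraries, and in whole liver fewer cells of a type cannot be told apart from less RNA per cell.

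**Figure D2:**
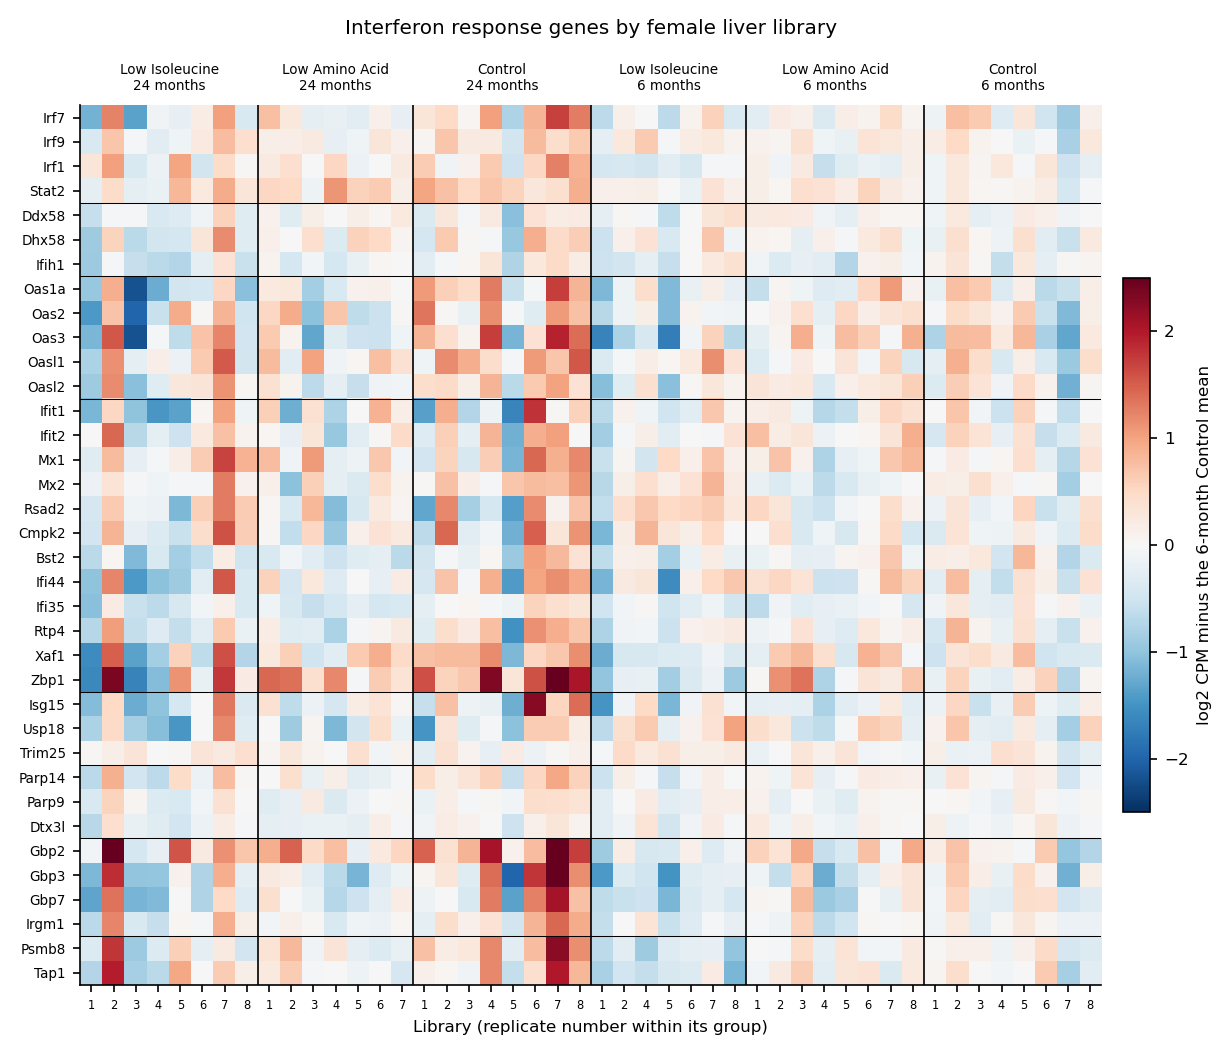
log2 CPM of each of the 36 members (rows, grouped by role) in each of 46 female libraries (columns, by group and replicate number), relative to the 6-month Control mean of that gene, with red higher and blue lower. Columns 2 and 7 of Low Isoleucine at 24 months and column 7 of the 24-month Controls are mostly red, and column 5 of the 24-month Controls is mostly blue.

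A part of the list was higher in older Controls. At an adjusted p under 0.05 in edgeR's quasi-likelihood test with Benjamini-Hochberg adjustment, 7 of 36 members (19.4%) were higher at 24 months and 0 lower, against 16.7% of all genes higher and 28% changed in either direction, so the share called is near the background of this comparison. Of the fold changes, 35 of 36 were above 0, with a median of 0.52 on the log2 scale against 0.03 over all genes, and 16 members (44.4%) had an unadjusted p under 0.05, all higher, against 22.6% of all genes higher and 39.3% either way. The members called were the transcription factors Stat2 and Irf1, the effectors Zbp1 and Mx2, the GTPases Gbp2 and Gbp3, and the immunoproteasome subunit Psmb8.

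Stat2 (chromosome 10, 128270559 to 128292849) encodes the STAT that joins IRF9 in the type I response. Its lowest, median and highest values were 78.6, 101 and 129 CPM in 24-month Controls, against 48.0, 66.6 and 78.2 CPM in 6-month Controls. Every library at 24 months lay above every one at 6 months, although the nearest pair all but touched. The fitted log2 fold change was 0.64 ± 0.15 (SE; adjusted p = 0.00135).

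Irf1 (chromosome 11, 53770014 to 53778374), a transcription factor induced by interferon gamma, had 30.8, 66.1 and 107 CPM in 24-month Controls, against 30.8, 44.7 and 55.0 CPM in 6-month Controls. Of the libraries at 24 months, 5 of 8 lay above the whole 6-month group, while replicate 5 lay level with its lowest. It rose by 0.50 ± 0.19 on the log2 scale (adjusted p = 0.0439). Irf7 (chromosome 7, 141262706 to 141266481), the factor that amplifies type I interferon production, had 19.6, 54.0 and 110.0 CPM in 24-month Controls, against 17.7, 33.7 and 56.4 CPM in 6-month Controls. Of the 24-month libraries, 4 of 8 exceeded all at 6 months, and the difference, 0.69 ± 0.29, did not pass (adjusted p = 0.0702). Irf9, the DNA-binding partner of STAT2, had 34.6, 60.3 and 82.3 CPM in 24-month Controls and 27.2, 48.8 and 67.4 CPM in 6-month Controls, largely overlapping, with a difference of 0.33 ± 0.16 (adjusted p = 0.116).

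Zbp1 (chromosome 2, 173206612 to 173218923), a sensor of left-handed nucleic acid that can trigger cell death, gave the largest fold change of the list in this comparison. It stood at 10.4, 25.6 and 75.9 CPM in 24-month Controls, against 5.03, 8.09 and 12.7 CPM in 6-month Controls. In 6 of 8 libraries at 24 months it exceeded every 6-month library, and replicate 7 was far above the rest. The log2 fold change was 1.78 ± 0.43 (adjusted p = 0.00214). Mx2 (chromosome 16, 97535308 to 97560900), a dynamin-like GTPase that restricts viruses, had 11.7, 19.7 and 25.7 CPM in 24-month Controls, against 6.60, 12.6 and 15.8 CPM in 6-month Controls. It was above the whole younger group in 5 of 8 older libraries and rose by 0.55 ± 0.21 (adjusted p = 0.0411).

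Gbp2 (chromosome 3, 142620602 to 142638008), a guanylate-binding protein that attacks the vacuoles of intracellular pathogens, had 10.7, 23.0 and 103 CPM in 24-month Controls, against 5.03, 10.7 and 16.5 CPM in 6-month Controls. Again 6 of 8 older libraries exceeded the whole younger group, led by replicate 7. It rose by 1.64 ± 0.40 (adjusted p = 0.00236). Its neighbour on the chromosome, Gbp3 (142560026 to 142573209), had 5.66, 39.2 and 136 CPM in 24-month Controls, against 9.79, 24.7 and 35.5 CPM in 6-month Controls. Here the 24-month group held both the lowest and the highest library of the pair of groups, and the rise was 1.07 ± 0.40 (adjusted p = 0.0434). Irgm1, an immunity-related GTPase, had 46.3, 84.5 and 172 CPM in 24-month Controls and 53.3, 62.5 and 78.1 CPM in 6-month Controls, a difference of 0.54 ± 0.22 that did not pass (adjusted p = 0.0588).

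Psmb8 (chromosome 17, 34197721 to 34201454), a catalytic subunit of the immunoproteasome, had 19.0, 38.7 and 110.0 CPM in 24-month Controls, against 17.3, 24.2 and 32.0 CPM in 6-month Controls. It exceeded the younger group in 5 of 8 older libraries and rose by 0.97 ± 0.28 (adjusted p = 0.00885). Tap1, which carries peptides into the endoplasmic reticulum for MHC class I, had 18.1, 33.1 and 110.0 CPM in 24-month Controls and 15.3, 27.4 and 43.4 CPM in 6-month Controls, with a difference of 0.66 ± 0.31 (adjusted p = 0.105). Both genes were highest in replicate 7 and lowest in replicate 5 of the older group.

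Most classical antiviral effectors did not pass. None of the 5 OAS genes passed, with a median difference of 0.71, among them Oas1a at 0.75 ± 0.32 (adjusted p = 0.0744) and Oasl1, which codes for an inactive relative of the OAS enzymes, at 0.71 ± 0.28 (adjusted p = 0.0516). Oasl1 had 6.34, 12.1 and 20.4 CPM in 24-month Controls, against 3.56, 6.72 and 12.7 CPM in 6-month Controls, overlapping in 4 of 8 older libraries. Isg15, a ubiquitin-like protein that is joined to other proteins during infection, had 2.14, 6.06 and 24.9 CPM in 24-month Controls, against 3.42, 4.64 and 8.03 CPM in 6-month Controls. Here 3 older libraries lay above the whole 6-month group and 2 below it, and the difference was 0.71 ± 0.35 (adjusted p = 0.126). Ifit1, which binds viral RNA that lacks host caps, spread in the same way, with 2 older libraries above and 3 below the whole 6-month group, at 5.22, 15.9 and 57.6 CPM in 24-month Controls and 10.7, 16.3 and 26.5 CPM in 6-month Controls (0.27 ± 0.36, adjusted p = 0.606). The RNA sensors Ddx58, Dhx58 and Ifih1 had a median difference of 0.04, and the PARP group (Parp9, Parp14 and Dtx3l) of 0.16, with 0 of 3 past the test in each. The members not yet given, none of which passed, lay between -0.05 and 0.79. Among them were the ISG15 protease Usp18 at the low end and Oas3 at the high end, and between these Oas2, Oasl2, Ifit2, Ifi44, Cmpk2, Rsad2, Mx1, Rtp4, Xaf1, Trim25 and Gbp7, a guanylate-binding protein (0.74 ± 0.34, adjusted p = 0.0939).

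**Figure D3:**
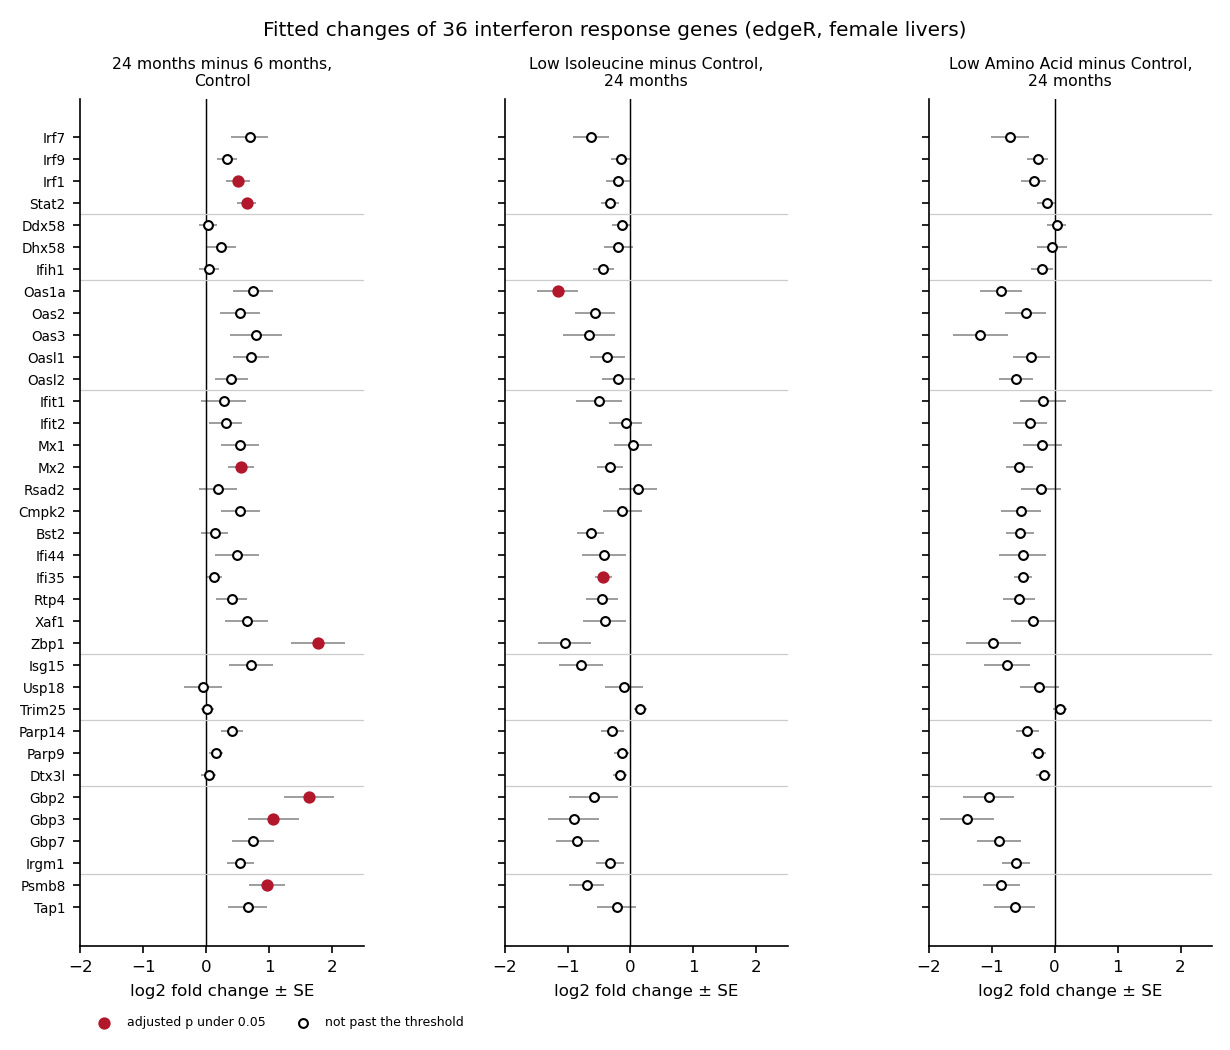
Fitted log2 fold change ± SE of each of the 36 members (rows, in blocks by role) for 24 months minus 6 months in Controls, Low Isoleucine minus Control at 24 months and Low Amino Acid minus Control at 24 months, with filled points past an adjusted p under 0.05. In the first panel 35 of 36 points lie above 0, and in the other panels 33 and 34 of 36 lie below 0, with the 24-month Controls entering all 3.

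Markers of other cell types were also higher in the older Controls. Among them, 9 of 9 tested neutrophil markers, 9 of 11 Kupffer and macrophage markers, 5 of 5 B-cell markers and 7 of 12 T and NK cell markers were called higher at 24 months, as were 11 of 11 acute phase genes. Without the pair of libraries highest in B, T and NK markers, an alternative chosen after seeing the data, 4 members and 3044 of all genes passed. These members were Stat2 at 0.67 (adjusted p = 0.00169), Zbp1 at 1.43 (adjusted p = 0.0055), Gbp2 at 1.12 (adjusted p = 0.00604) and Psmb8 at 0.64 (adjusted p = 0.0153). The number called was 13 without replicate 5 of the 24-month Controls, 3 without replicate 7, 4 without replicate 8 and 4 without replicate 7 of the 6-month Controls. For these single omissions the number of all genes called is not given, so the member counts cannot be read against the background. Stat2, Zbp1 and Gbp2 kept their calls without each of the 46 libraries in turn.

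At 24 months, a few members were lower on Low Isoleucine. Of 36, 2 (5.56%) were called lower and 0 higher than in Controls, against 3.79% of all genes lower and 6.48% changed either way, so here too the share called is close to the background. Of the fold changes, 33 of 36 were below 0, with a median of -0.35 against -0.02 over all genes, and 11 members (30.6%) at an unadjusted p under 0.05, all lower, against 12.7% of all genes lower and 22.4% either way. The genes called were Oas1a and Ifi35.

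Oas1a (chromosome 5, 120896256 to 120907521), an RNA-sensing synthetase, had 1.21, 3.57 and 10.9 CPM on Low Isoleucine at 24 months, against 3.90, 9.63 and 19.3 CPM in 24-month Controls. In 4 of 8 Low Isoleucine libraries it lay below every Control library, and replicates 2 and 7 were the highest of the diet group. It fell by 1.16 on the log2 scale (log2 fold change -1.16 ± 0.32, adjusted p = 0.0236). Ifi35 (chromosome 11, 101448407 to 101458698), a leucine zipper protein induced by interferon, had 10.8, 17.0 and 25.8 CPM on Low Isoleucine, against 18.8, 22.7 and 33.2 CPM in Controls. In 5 of 8 diet libraries it lay below every Control library, and the difference was -0.43 ± 0.13 (adjusted p = 0.04).

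Several members that were higher in older Controls had the opposite sign here without passing. The pair of comparisons shares the 24-month Controls, so opposite signs are in part built in. Zbp1 had 2.58, 8.56 and 43.2 CPM on Low Isoleucine, against the 10.4, 25.6 and 75.9 CPM of Controls, with 5 of 8 libraries below every Control and replicates 2, 5 and 7 well inside the Control range. Its difference was -1.05 ± 0.42 (adjusted p = 0.119). Psmb8 had 12.1, 18.8 and 79.7 CPM, with 4 of 8 libraries below every Control, and a difference of -0.70 ± 0.28 (adjusted p = 0.121). Stat2 had 55.6, 78.7 and 124 CPM, again with 4 of 8 below every Control, and a difference of -0.32 ± 0.14 (adjusted p = 0.178). For Gbp2 (7.34, 13.9 and 72.1 CPM) the difference was -0.58 ± 0.39 (adjusted p = 0.382), and for Gbp3 (10.4, 16.3 and 81.3 CPM) it was -0.90 ± 0.40 (adjusted p = 0.17).

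Bst2 came closest to the threshold among members not called, at 13.1, 19.3 and 32.3 CPM on Low Isoleucine, against 14.8, 28.4 and 58.0 CPM in Controls (-0.63 ± 0.21, adjusted p = 0.0651). Irf7 had 13.2, 30.1 and 79.3 CPM on Low Isoleucine, with 2 of 8 libraries below every Control (-0.63 ± 0.29, adjusted p = 0.19). Isg15 had 2.1, 3.87 and 12.9 CPM (-0.79 ± 0.35, adjusted p = 0.17) and Ifit1 5.97, 11.7 and 33 CPM (-0.50 ± 0.36, adjusted p = 0.428), both within the Control range but for 1 library of Isg15. Mx1 and Rsad2, an antiviral GTPase and viperin, and Trim25 were the 3 members with a positive sign, the highest, Trim25, at 0.15. Mx2, at 10.8, 11.5 and 29.4 CPM, lay below every Control in 5 of 8 libraries, although replicate 7 exceeded all Controls. Members with a role in sensing RNA in the cytoplasm included Ifih1, which codes for MDA5, at -0.43 ± 0.16 (adjusted p = 0.0997), and Ddx58, which codes for RIG-I, at -0.14 ± 0.14 (adjusted p = 0.608).

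**Figure D4:**
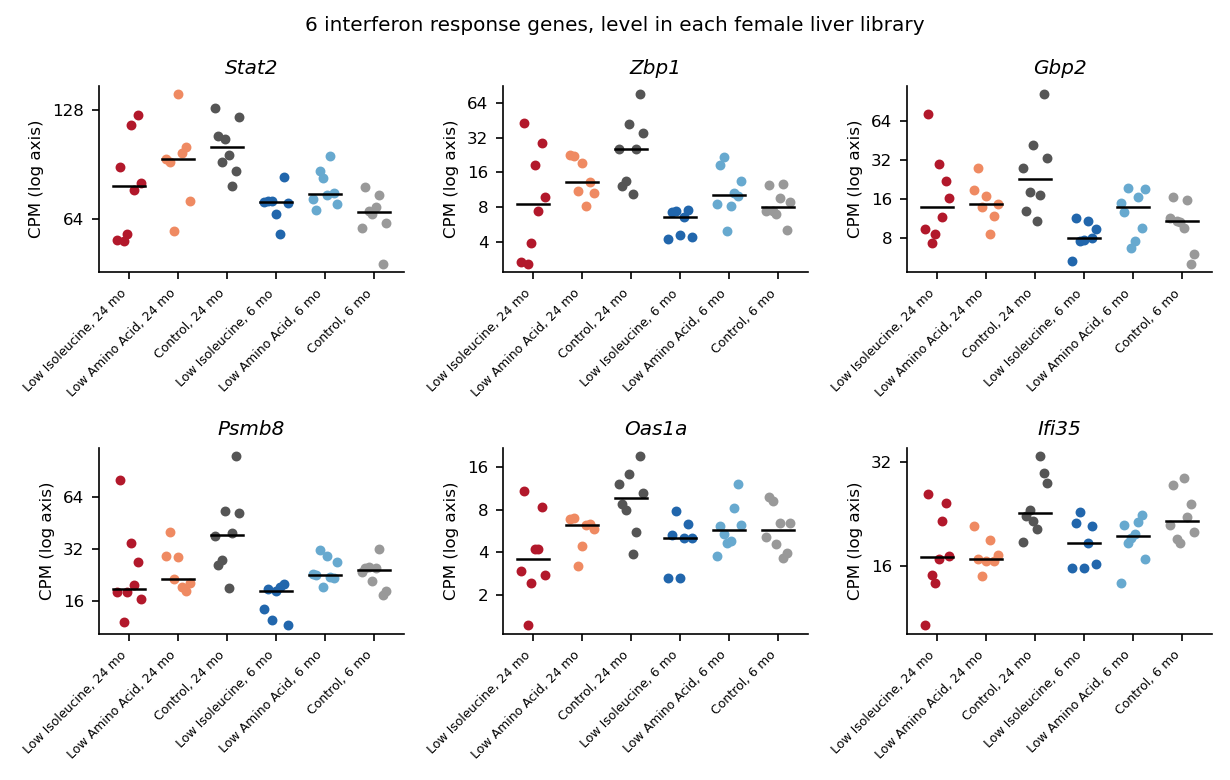
CPM (log axis) of Stat2, Zbp1, Gbp2, Psmb8, Oas1a and Ifi35 in each of 46 female libraries by group, with a bar at the group median. For Stat2 all 8 libraries of 24-month Controls (78.6 to 129 CPM) lie above all 8 of 6-month Controls (48.0 to 78.2 CPM), and for Oas1a the median is 3.57 CPM on Low Isoleucine at 24 months, against 9.63 CPM in 24-month Controls.

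Which members passed on Low Isoleucine at 24 months depended on single libraries. How many of all genes passed without each library is not given here. The counts for single omissions therefore cannot be read against the background. The number called was 9 without replicate 2 of the diet group, 5 without its replicate 7 or without Control replicate 5, 1 without its replicates 3 or 5 or Control replicates 6 or 8, and 0 without its replicates 1, 4 or 8 or Control replicate 7. Without the pair of libraries highest in B, T and NK markers, Oas1a (-1.29, adjusted p = 0.0115) and Ifi35 (-0.50, adjusted p = 0.0238) passed together with Psmb8 (-0.83, adjusted p = 0.0131), among 744 of all genes. In this comparison 9 of 11 acute phase genes and 3 of 9 neutrophil markers were called lower on Low Isoleucine, while 0 of 11 Kupffer, 0 of 5 B-cell and 0 of 12 T and NK cell markers passed.

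On Low Amino Acid at 24 months, 0 of 36 members passed against Control, where 0.745% of all genes did, although 34 of 36 lay below 0, the median was -0.48 against -0.03 over all genes, and 17 (47.2%) had an unadjusted p under 0.05, all lower, against 9.84% of all genes lower and 16.9% either way. DESeq2's Wald test called 297 of all genes and 2 members, both lower, Ifi35 (-0.50, adjusted p = 0.0275) and Gbp3 (-1.40, adjusted p = 0.0452). With limma voom 70 of all genes and 0 members passed. Ifi35 stood at 15.0, 16.8 and 20.8 CPM on Low Amino Acid, with 5 of 7 libraries below every Control library and all 7 below the Control median of 22.7 CPM (edgeR -0.50 ± 0.14, adjusted p = 0.0619). Gbp3 stood at 10.1, 18.5 and 26.4 CPM, all 7 below the Control median of 39.2 CPM yet above the lowest Control (edgeR -1.40 ± 0.43, adjusted p = 0.0901). Zbp1, at 8.18, 13.1 and 22.8 CPM, also had all 7 libraries below the Control median (-0.97 ± 0.43, adjusted p = 0.243). The Low Amino Acid libraries lay within a narrower range than the other groups at 24 months, with no library like replicates 2 and 7 on Low Isoleucine. No B, T and NK, Kupffer or neutrophil marker passed in this comparison, and all 11 Kupffer and all 5 B-cell markers lay below 0. The median B-cell sum was not lower on the diet, at 14.5 CPM against 13.8 CPM in Controls, whose replicate 7 alone stood at 217 CPM. The median Kupffer sum was 594 CPM on the diet and 825 CPM in Controls.

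Between the restricted diets, Low Isoleucine minus Low Amino Acid, 0 members passed at 24 months, where 1.25% of all genes did, and the median difference was 0.10. At an unadjusted p under 0.05 there were 0 members, against 15.8% of all genes. DESeq2 called 0 members and 329 of all genes, and limma voom called 832 of all genes and 1 member, Xaf1, an apoptosis factor (-0.94, adjusted p = 0.0491). At 6 months 0 passed against 0.0159% of all genes, with 4 (11.1%) at an unadjusted p under 0.05, near the 9.99% of all genes. DESeq2 and limma voom called 0 members there, with 18 and 130 of all genes. Psmb8 stood at 11.6, 18.3 and 20.0 CPM on Low Isoleucine at 6 months, against 19.4, 22.6 and 31.5 CPM on Low Amino Acid (-0.58 ± 0.29, adjusted p = 0.503). All but the top of the Low Isoleucine range lay below the Low Amino Acid range. Zbp1 had 4.24, 6.56 and 7.6 CPM on Low Isoleucine and 4.92, 10.3 and 21.7 CPM on Low Amino Acid (-0.99 ± 0.44, adjusted p = 0.454).

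Against Control at 6 months neither diet moved a member past the test. On Low Isoleucine 0 passed, where 0.0238% of all genes did, with a median of -0.16 and 26 of 36 below 0. At an unadjusted p under 0.05 there were 0 members, against 10.1% of all genes. On Low Amino Acid 0 passed, where 0 of all genes did, with a median of 0.04 and 15 of 36 below 0. Here too 0 members had an unadjusted p under 0.05, against 8.11% of all genes. DESeq2 called 0 members in both, with 38 of all genes on Low Isoleucine and 8 on Low Amino Acid. Under limma voom 0 members passed in both, with 72 and 52 of all genes in that order. Ifit1 stood at 10.2, 15.4 and 26.3 CPM on Low Isoleucine, at 10, 18.4 and 23.6 CPM on Low Amino Acid and at 10.7, 16.3 and 26.5 CPM in Controls at 6 months. These 3 ranges almost coincided. The smallest SE of a member's fold change in these comparisons was 0.10, for Trim25, and the largest 0.44, for Zbp1, so a difference within such errors was not detectable here.

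Age was compared on the restricted diets too. On Low Isoleucine, 2 of 36 members (5.56%) were higher at 24 months and 0 lower, against 4.90% of all genes higher and 7.34% in either direction, with a median of 0.18. At an unadjusted p under 0.05 there were 6 members (16.7%), all higher, against 14.1% of all genes higher and 25.2% either way. Gbp2 stood at 7.34, 13.9 and 72.1 CPM at 24 months and 5.33, 7.98 and 11.3 CPM at 6 months (1.37 ± 0.42, adjusted p = 0.0359), and its top older libraries were replicates 2, 5 and 7. Irf1 stood at 32.2, 50.0 and 89.8 CPM at 24 months and 32.1, 33.8 and 43.3 CPM at 6 months (0.61 ± 0.20, adjusted p = 0.0496). The count of members called was 0 without replicate 2, 5 or 7 of the 24-month group. It was also 0 without replicate 1, 4, 5, 6 or 8 of the 6-month group. It was 5 without replicate 3 and 4 without replicate 4 of the 24-month group, and 1 without any of 22 others. Numbers of all genes called are not given for these single omissions, so they cannot be read against the background. Without the pair of libraries highest in B, T and NK markers, 0 members and 499 of all genes were called.

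On Low Amino Acid 0 members passed between 24 and 6 months, where 1.61% of all genes did, with a median of -0.04. At an unadjusted p under 0.05 there were 0 members, against 13.8% of all genes. DESeq2 called 0 members and 332 of all genes, and limma voom 0 members and 467 of all genes. Stat2 had 59.2, 93.6 and 141 CPM at 24 months and 67.7, 74.9 and 95.1 CPM at 6 months (0.26 ± 0.15, adjusted p = 0.436). The older range enclosed the younger one. The difference in diet effect between ages was tested directly for both diets. For Low Isoleucine and for Low Amino Acid, 0 members and 0 of all genes passed. At an unadjusted p under 0.05 there were 0 members for Low Isoleucine, against 1072 of all 12617 genes. At that threshold there were 5 members (13.9%) for Low Amino Acid, all below 0, against 5.65% of all genes below 0 and 10.3% either way. DESeq2 and limma voom called 0 members in both, although DESeq2 called 25 of all genes for Low Isoleucine. The median differences were -0.26 and -0.49 on the log2 scale. The same terms test whether the change with age differs between each restricted diet and Control, and no such difference was detected.

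Other genes of the pathway, 91 chosen as a list, of which 69 had female counts and 66 passed the filter, were read for context. Among Controls, 28 of 66 were higher at 24 months and 1 lower, with a median of 0.47, against the 16.7% of all genes that were higher. The receptor genes of type I interferon did not pass, at 0.10 ± 0.07 for Ifnar1 (adjusted p = 0.291) and 0.07 ± 0.08 for Ifnar2 (adjusted p = 0.571), and their levels were even, with Ifnar1 at 57.4, 68.9 and 82.0 CPM in 24-month Controls and 55.3, 61.9 and 78.4 CPM in 6-month Controls. Transcripts of the ligands were scarce: Ifnb1 was at 0 in every Control library and Ifng reached at most 0.343 CPM in 24-month Controls.

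Of the pathway genes that rose with age in Controls, those with the smallest p included genes of other pathways. Stat3 and Socs3, which act downstream of interleukin 6 as well, rose by 1.08 ± 0.18 (adjusted p = 8.14e-05) and 2.59 ± 0.52 (adjusted p = 0.000472). Ly6e, a surface protein that limits virus entry, rose by 1.09 ± 0.24 (adjusted p = 0.00121), and Tor3a, an interferon-induced ATPase, by 1.10 ± 0.26 (adjusted p = 0.00184). The gene that fell was Mavs, the mitochondrial adaptor of the RNA sensors, at 86.5, 102 and 129 CPM in 24-month Controls, against 124, 146 and 156 CPM in 6-month Controls (-0.42 ± 0.09, adjusted p = 0.00123). On Low Isoleucine, 8 of 66 were higher at 24 than at 6 months, against 4.90% of all genes higher, led by Tlr9 (2.54 ± 0.61, adjusted p = 0.00939), Irf8 (1.47 ± 0.36, adjusted p = 0.0106), Tmem173 (1.27 ± 0.33, adjusted p = 0.0151) and Cd274 (1.71 ± 0.46, adjusted p = 0.018), genes that immune cells express. On Low Amino Acid 0 of 66 passed with age, where 1.61% of all genes did.

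On Low Isoleucine at 24 months 7 of the 66 pathway genes were lower than in Control and 0 higher, against 3.79% of all genes lower. Ifitm3, which blocks virus entry at endosomes, stood at 64.7, 80.4 and 178 CPM on Low Isoleucine, against 161, 202 and 262 CPM in Controls (-1.02 ± 0.19, adjusted p = 0.00111), so that the diet median lay below every Control library. Ube2l6, the conjugating enzyme that passes ISG15 to its targets, stood at 15.3, 25.5 and 42.2 CPM, against 22.5, 61.9 and 73.4 CPM (-0.94 ± 0.18, adjusted p = 0.00111). Stat3 (-0.76 ± 0.18, adjusted p = 0.00694) and Ifitm2 (-0.76 ± 0.19, adjusted p = 0.00992) were lower too. Ube2l6 was also the 1 pathway gene that differed between Low Isoleucine and Low Amino Acid at 24 months, with 41.3, 50.9 and 67.7 CPM on Low Amino Acid (-0.91 ± 0.18, adjusted p = 0.00771), while 0 of 66 passed between Low Amino Acid and Control at 24 months or for either diet at 6 months. Isg15 itself differed by -0.03 ± 0.37 between the restricted diets at 24 months (adjusted p = 0.982).

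Males can be read only from the authors' deposited table, for which the sources used here give neither libraries nor model. Directions in males assume that its signs run as in the female table, which could not be checked against male counts. On Low Isoleucine at 6 months in the authors' deposited table, 13 of 37 members were lower than in Control males and 0 higher, against 11.7% of all its genes lower and 21.1% either way, and all 37 lay below 0 with a median of -1.13. The authors' deposited table gave the smallest adjusted p to Bst2 (-1.79, adjusted p = 9.85e-05), Irf7 (-2.58, adjusted p = 0.000185), Ifi35 (-0.81, adjusted p = 0.00177), Dhx58 (-1.63, adjusted p = 0.00416), Irf9 (-0.83, adjusted p = 0.00599) and Oas1a (-2.55, adjusted p = 0.00805). By role, the authors' deposited table called 3 of 4 transcription factors, 2 of 3 RNA sensors, 2 of 3 genes of the ISG15 system, 2 of 5 OAS genes and 4 of 13 other effectors lower. It called 0 of 4 GTPases, 0 of 3 in the PARP group and 0 of 2 antigen processing genes. Roles with 0 calls did not all fall less. In the authors' deposited table medians were -0.96, -0.36 and -1.20 for these 3 roles, against -0.67 for transcription factors and -0.68 for RNA sensors. For the ISG15 system, OAS genes and other effectors they were -2.18, -0.91 and -1.46. Ifit3 was at -1.96 there (adjusted p = 0.0598 in the authors' deposited table).

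In 6-month males on Low Amino Acid, the authors' deposited table called 5 of 37 members lower and 0 higher, against 11% of all genes lower and 16.3% either way, with a median of -0.54. They were Bst2 (-1.36, adjusted p = 0.00021), Irf7 (-1.45, adjusted p = 0.00444), Ifi35 (-0.54, adjusted p = 0.0132), Trim25 (-0.47, adjusted p = 0.0161) and Oasl1 (-1.28, adjusted p = 0.0332), as the authors' deposited table lists them. Both diet comparisons share the male Controls of that age. At 24 months in males the authors' deposited table called 0 members on either diet, where 0.0676% of its genes changed on Low Isoleucine and 0.0563% on Low Amino Acid, and the signs differed: 36 of 37 below 0 on Low Isoleucine with a median of -0.58, and 34 of 37 above 0 on Low Amino Acid with a median of 0.36. Among male Controls it called 1 member with age, Bst2, lower at 24 months (-0.70, adjusted p = 0.0294), against 11.7% of genes lower and 20.0% either way, with a median near that of no change, 0.01. Whether males and females differ was not tested, since male counts were not analysed here.

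For females, the authors' deposited table called 11 of 37 members lower on Low Isoleucine at 24 months and 0 higher, against 5.21% of its genes lower and 9.24% either way. Which libraries entered it is not stated. An earlier match of its fold changes to the counts pointed to 5 of the 47 libraries as absent: replicate 3 on Low Isoleucine at 6 months, and replicates 2 and 5 on Low Isoleucine and 2 and 4 on Low Amino Acid at 24 months. For Low Isoleucine at 24 months the members' fold changes in the authors' deposited table differed from those of the fit of 46 libraries by a median of 0.22 on the log2 scale, and from those of a fit without these 5 by 0.08. On Low Amino Acid at 24 months these medians were 0.12 and 0.09, and with age among Controls 0.06 and 0.07. The libraries were picked by such a match, so a closer match without them is in part built in and is no separate evidence. The smallest adjusted p in the authors' deposited table belonged to Psmb8 (-1.18, adjusted p = 0.00251), Zbp1 (-2.02, adjusted p = 0.00372) and Oas1a (-1.65, adjusted p = 0.00404). The fit of counts without these 5 libraries called 13 members, all lower, and 1771 of all genes, against 2 members and 818 of all genes in the fit of 46 libraries. On Low Amino Acid at 24 months the authors' deposited table called 1 member, Psmb8 (-0.92, adjusted p = 0.027), against 2.66% of its genes lower and 5.53% either way, and the fit of counts without these 5 libraries called 5 members and 1473 of all genes, against 0 members and 94 of all genes in the fit of 46 libraries. With age among Controls the authors' deposited table called 5 members higher (Stat2, Zbp1, Gbp2, Psmb8 and Mx2) against 12.4% of its genes higher and 23.5% either way, and at 6 months it called 0 on either diet, where 0.0931% of its genes changed on Low Isoleucine and 0.0116% on Low Amino Acid. Ifit3 in females lay at -0.58 on Low Isoleucine at 24 months (adjusted p = 0.339) and -0.05 with age in Controls (adjusted p = 0.932) in the authors' deposited table.

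**Figure D5:**
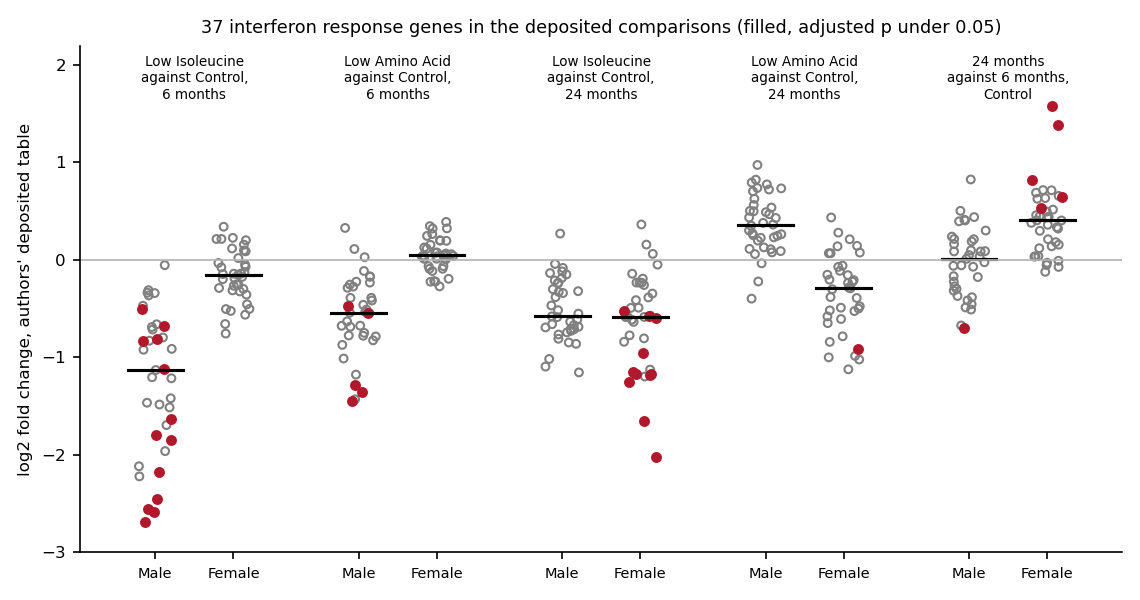
log2 fold changes of the 37 members in the authors' deposited table of each sex, 1 point per gene, filled where the deposited adjusted p is under 0.05, with a bar at the median. On Low Isoleucine at 6 months the median is -1.13 in males and -0.15 in females, and on Low Amino Acid at 24 months it is 0.36 in males and -0.29 in females, differences between sexes that were not tested.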

How the data were processed

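RNA of fasted mouse liver was read from stranded libraries selected for polyadenylated RNA, per the labels' protocols, with 2 lanes per library merged. The authors deposited estimated counts per gene, not normalized, and for each sex a table of comparisons with log2 fold changes and p-values. The submitters' processing notes name GRCm38.p5, R 3.4.3, edgeR and limma without roles. The sources used here give neither the aligner nor the annotation, nor how reads of close gene copies (Oas1a, the Gbp, Ifit and Mx genes) were divided, so values of those genes are uncertain to that extent. Of 51912 lines with counts, 34637 are filled only in part and cannot be assigned to libraries, so the 17275 full lines were used for 47 female columns, and 45 columns of samples were not used. Signs of deposited fold changes were fixed against the female counts (r across genes 0.877 to 0.95 over 5 comparisons), positive meaning higher on the restricted diet or at 24 months. The male table was taken to have the same direction, which could not be checked because male counts were not usable.

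Symbols, positions and exon lengths come from GENCODE M21 (17251 identifiers matched) and promoters from RefSeq (GRCm38.p6). The estimated counts as deposited were rounded, filtered (filterByExpr), scaled by TMM and fitted over 46 libraries in 6 groups with edgeR 4.0.16 (R 4.3.3) in a quasi-likelihood fit with Benjamini-Hochberg adjustment over 12617 genes and a threshold of 0.05. CPM scales a library to 1e+06 counts after TMM, and log2 CPM adds a prior count of 2. SE is that of the log2 fold change. Tests covered 9 comparisons and 2 differences of differences, and were tested on simulated data. Alternatives used limma 3.58.1 and DESeq2 1.42.0. Python 3.11.15 did the rest.

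The members and gene lists were chosen with earlier results of these data known. Values are given for at most 14 members with the smallest adjusted p in any comparison, and for Irf7, Irf9, Stat2, Irf1, Isg15, Oas1a and Ifit1 in any case. Up to 4 pathway genes per direction, by smallest p, and Ifnar1 and Ifnar2 are named, and up to 6 members per male comparison. Ifnb1, Ifng, Xaf1, Gbp7, Ifih1, Ddx58, Trim25, Ube2l6 beside Isg15, and the highest levels per length were named after their values were seen. 1 gene that this rule names is not reported here.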

Additional observations from a re-analysis of the deposited data

Results flagged for a closer look

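Across 108 sets of a group and a measure (17 members and the mean over members, in 6 groups), 4 held a library whose gap to its nearest neighbour was large for the range of the group by Dixon's test, where chance alone flags about 1 in 20. Bst2 stood at 45.2 CPM in replicate 7 of the 6-month Low Amino Acid group, above 30.5 CPM in the next of 8 libraries. Mx2 stood at 29.4 CPM in Low Isoleucine replicate 7 at 24 months, above 15.1 CPM in the next. Replicate 7 of the 6-month Controls was low in both others, at 9.79 CPM for Gbp3, below 19.9 CPM in the next library, and at 6.60 CPM for Mx2, below 11.7 CPM. No library was flagged on the mean over members. The 4 flags are values only, and their cause was not tested.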

How the results depend on the processing

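The 11 member calls kept their sign under all 10 alternative settings, which gave 110 values, and 27 of these no longer passed. Of 385 differences not called, 47 of 3778 values passed under some setting. In what follows, brackets after a member count give the number of all genes called in the same fit. For Low Isoleucine minus Control at 24 months 2 members and 818 of all genes were called in the fit of 46 libraries. The member count was 1 with no filter (691), 6 with limma voom (565) and 0 with libraries of the same age only (188). It was 1 without its shallowest library (872) and 5 without Control replicates 1, 4 and 5 (791). Without the 5 libraries inferred to be absent from the deposited female table it was 13 (1771). For Low Amino Acid minus Control at 24 months (0 members and 94 of all genes called) it was 2 with DESeq2 (297). It was 5 without those 5 libraries (1473). That setting also gave 1 member, Psmb8, and 521 of all genes for the difference of the Low Amino Acid effect between ages. For age among Controls 7 members and 3538 of all genes were called. The member count was 4 with no filter (3374). It was 13 without Control replicates 1, 4 and 5 (1926), so members called rose while all genes called fell. Without the pair of libraries highest in B, T and NK markers it was 4 (3044). How near the share of members lay to that of all genes thus depended on the setting. For age on Low Isoleucine 2 members and 926 of all genes were called. The member count was 4 with DESeq2 (1371), 1 with no filter (843) and 1 with Y_FEM_HH_14N kept in (1120). It was 0 with limma voom (1079), with libraries of the same diet only (374) and without the shallowest library (434). Without the 5 libraries (119) and without the marker-high pair (499) it was 0 as well. The marker-high pair was chosen after seeing the data. For Low Isoleucine minus Low Amino Acid it was 1 at 24 months with limma voom (832). At 6 months it was 2, Psmb8 and Zbp1, with libraries of the same age only (201). Leaving out 1 library at a time gave 0 to 9 calls for Low Isoleucine at 24 months, 0 to 1 for Low Amino Acid at 24 months, 3 to 13 for age among Controls, 0 to 5 for age on Low Isoleucine and 0 to 0 elsewhere. The single call on Low Amino Acid appeared without replicate 4 of the 24-month Controls or replicate 1 or 2 of the 24-month Low Isoleucine group. Counts of all genes are not given for these omissions, so their member counts cannot be read against the background here.

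Among single calls, Psmb8 with age in Controls was lost only without replicate 7 of the 24-month Controls (adjusted p = 0.0629 by edgeR). Oas1a on Low Isoleucine was lost without Control replicate 7 or diet replicates 1, 4 or 8 (adjusted p up to 0.064), and Ifi35 without Control replicates 6, 7 or 8 or diet replicates 1, 3, 4, 5 or 8 (up to 0.101). With age in Controls, Gbp3 was lost in 10 of 46 omissions (up to 0.217), Irf1 in 9 (up to 0.16) and Mx2 in 9 (up to 0.1), each a 24-month or 6-month Control library, and with age on Low Isoleucine Gbp2 in 9 (up to 0.199) and Irf1 in 31 (up to 0.158). No paired analysis was possible because the labels give no replicate numbers that groups share. The shallowest library, Low Isoleucine replicate 5 at 24 months, held 7.82 M counts.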
